A study of Homo sapiens with 1 sample.

Results

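The block miR-4632 to miR-4804 holds human microRNAs (miRNAs) that were named late, largely from deep sequencing of breast tissue. Its members were chosen by name alone, as every human miRNA on the array whose number runs from 4632 to 4804, with any letter or arm suffix. This gave 280 of the 2549 miRNAs of the array, from 175 hairpins: 105 named as 5p arms, 105 as 3p arms and 70 with no arm in the name. They were read on 1 single-colour Agilent array of DLD-1, a human line established from a colorectal carcinoma and grown in RPMI 1640 with fetal bovine serum and given negative control siRNA by transfection (si-NC, n = 1 sample). The study asked how loss of circLONP2, a circular RNA, alters miRNA levels, and the array of the depleted cells was not analysed here. There was no second sample, so no groups were compared and no test was run. Every error below is technical, either the error model of the scanner software or the SD over replicate spots.

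A miRNA is a short RNA that guides an Argonaute protein to target messenger RNAs. It is cut from a hairpin, first by Drosha in the nucleus and then by Dicer in the cytoplasm, and either arm of the hairpin can become the mature strand (5p or 3p). Bases 2 to 8 of the mature strand, the seed, do most of the target pairing. Numbers follow the order in which miRNAs were registered, so early numbers hold most of the abundant and conserved families, while high numbers hold many species first seen in few sequencing reads.

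Of the 280 members, 250 (89.3%) had a mature sequence in RefSeq (GRCh38.p14). The sequences below are those of the members with the highest signals, which carry the clearest measurements of the block. They are written 5′ to 3′ in lower case with the seed in capitals.
miR-4701-5p: uUGGCCACcacaccuaccccuu
miR-4713-3p: uGGGAUCCagacagugggagaa
miR-4716-3p: aAGGGGGAaggaaacauggaga
miR-4653-3p: uGGAGUUAaggguugcuuggaga
miR-4652-3p: gUUCUGUUaacccauccccuca
miR-4728-5p: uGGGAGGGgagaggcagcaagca
miR-4721: uGAGGGCUccaggugacggugg
The eighth is miR-4769-3p. In GRCh38.p14, miR-4701-5p lies at chr12:48772014-48772035 on the minus strand, within the span of ADCY6, an adenylate cyclase gene. The mature miR-4713-3p lies at chr15:51242233-51242254 on the plus strand, opposite in direction to CYP19A1, the aromatase gene around it. For miR-4716-3p the position is chr15:49169079-49169100, minus strand, opposite to the galactokinase gene GALK2. Members cut from the same strand as their host gene include miR-4653-3p at chr7:101159524-101159546 in AP1S1, a subunit of a clathrin adaptor complex. Another is miR-4728-5p at chr17:39726496-39726518 in ERBB2, the receptor tyrosine kinase HER2, and a further one is miR-4721 at chr16:28843927-28843948 in TUFM, a mitochondrial elongation factor. miR-4652-3p, at chr7:93716977-93716998 on the plus strand, lies in no protein-coding span. Whether a hairpin sits in an exon, an intron or a UTR was not analysed here, and the array itself was designed on hg19.

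The cell type label was checked first. All 10 markers listed for colon epithelium were detected, for example miR-192-5p with a total gene signal of 832. Of 10 markers of other tissues 4 were detected, against 44.4% of all miRNAs of the array. These 4 were miR-9-5p at 22.1, miR-223-3p at 25.4, miR-451a at 21.5 and miR-126-3p at 123. The check is limited to these lists, and miR-142-3p, a miRNA of blood cells that was not listed, had 695. No spot of the array was saturated. Of the 1000 negative control spots, 1.40% were well above background, and the 99th percentile of their background-subtracted signal was 16.1. Among the 5600 spots of the members 21.6% were well above background, against 34.3% of the 50980 spots of all miRNAs.

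The first question was how many members gave a measurable signal in these cells. The scanner software called 87 of the 280 members detected, which is 31.1%. Over all 2549 miRNAs of the array the share was 44.4%, and over the 2269 miRNAs outside the block it was 46.1%. The members were therefore detected less often in this sample than the array as a whole. Other blocks of names lay higher, with 49.9% for miR-1 to miR-999 (446 of 893), 47.2% for miR-4417 to miR-4540 (67 of 142) and 49.9% for miR-6715 to miR-6895 (176 of 353). By this call of the software, the latest of these blocks in the numbering was level with the earliest. Its detected miRNAs had a lower median total gene signal, at 10.8 against 19.9.

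The gap did not depend on how detection was defined. A rule asking for 1 probe with 50% or more of its spots well above background called 67 members (23.9%), against 37.9% of all miRNAs. The median spot of a probe exceeded the 99th percentile of the negative controls in 56 members (20%), against 34.8%. A signal of 5 or more was found for 56 (20%), against 33.3%. Asking that every probe be above background left 49 (17.5%), against 29.3%. The members stayed below the array under each of these rules. A deposited log2 value above the floor of the deposited table called the same 87. Of these, 31 shared a single low value that equals the floor when rounded, and all 31 had a signal under 5. This rule therefore only repeats the flag and is no separate check.

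Detected members were spread over the numbers, but not evenly. The share was 48.6% for miR-4632 to miR-4656 (18 of 37) and 42.1% for miR-4682 to miR-4706 (16 of 38). It was 22.0% for miR-4757 to miR-4781 (9 of 41) and 23.7% for miR-4782 to miR-4804 (9 of 38). The remaining bins lay between 23.8% and 32.5%. None of the 10 members with a letter suffix was detected, among them miR-4659a, miR-4659b, miR-4662a and miR-4662b, whose hairpins lie within 10 kb of each other in pairs. The share detected among letter-suffixed miRNAs of the whole array was not computed, so nothing is read from this count.

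Signals of the detected members were low. The total gene signal adds up the probes of a miRNA. Its median over the 87 members was 6.97 (quartiles 3.49 and 20.9). Over all 1133 detected miRNAs it was 12.5 (4.99 and 52.0). A signal under 5 was held by 31 members (35.6%), against 25.1% of all detected miRNAs, and 100 or more by 6 members (6.90%), against 19.1%. No member reached 1000, a level that 61 miRNAs of the array passed. The median error was 12.0% of the signal for the members (5.99% to 33.3%) and 8.94% for all detected miRNAs.

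**Figure D1:**
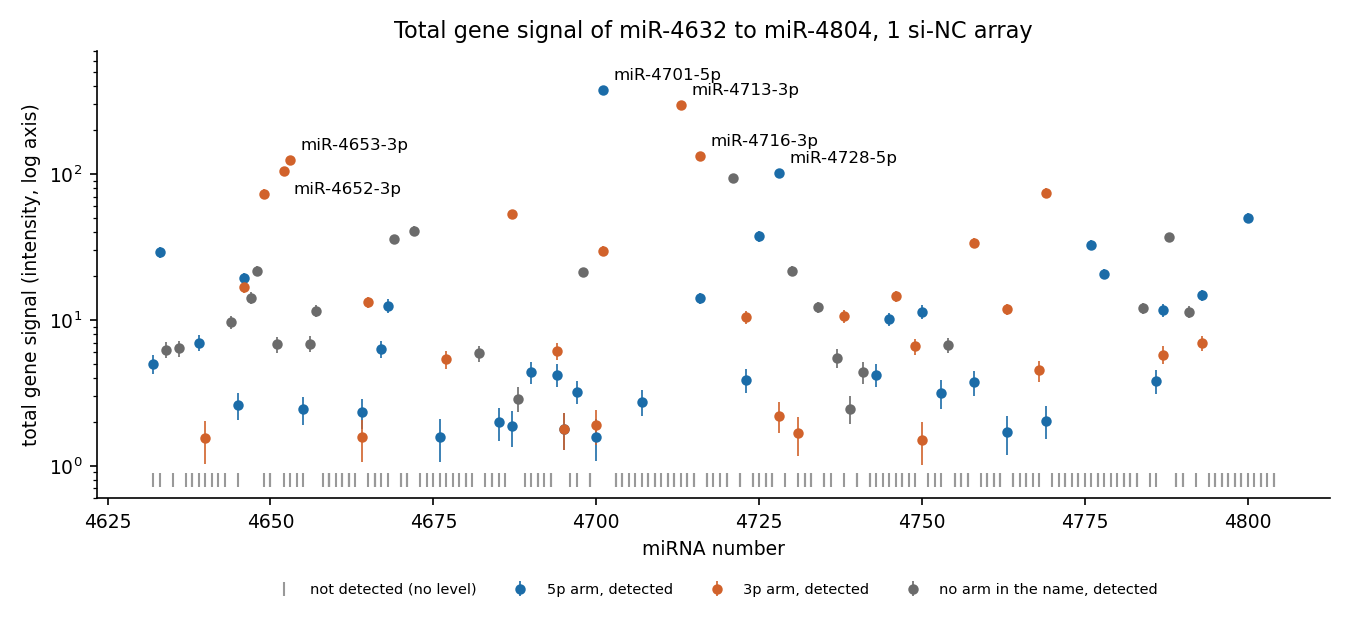
Total gene signal (log axis, no unit) of the 87 detected members against their number, coloured by arm, with bars for the error of the scanner software; grey ticks mark numbers with an undetected arm. Most points lie under 20 (64 of 87), and the 6 highest, named in the plot, lie between 101 and 374.

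The 8 highest signals were read probe by probe, in ± SD over the replicate spots that were not outliers. The highest was miR-4701-5p, with a total gene signal of 374 ± 26.8, the 97th highest of the array. Its probes had mean spot signals of 1102 ± 159 (lowest 851, median 1088, highest 1328) and 939.8 ± 139 (718, 987 and 1109.7). The total signal of a probe was on another scale than its spots, at a median of 0.183 times its mean spot (0.110 to 0.183 over 117 probes). The total gene signal adds up the probes on that scale, so mean spot signals do not sum to it directly.

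Next came miR-4713-3p at 295 ± 20.9, with probes at 842 ± 29.8 (812, 839.6 and 903) and 771 ± 50.5 (668, 785 and 820.4). Both probes of its partner arm, miR-4713-5p, stayed at background, at 6.30 ± 2.04 and 4.65 ± 2.14, with 0 spots well above it. The hairpin therefore gave a signal from its 3p arm alone.

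Behind these, miR-4716-3p had 132 ± 9.41 (probes 372 ± 28.1 and 352 ± 13.3) and miR-4653-3p had 124 ± 8.80 (353 ± 8.80 and 323 ± 24.9). The third of this group, miR-4652-3p, had 105 ± 6.30 over 3 probes (307 ± 82.8, 298 ± 69.1 and 261 ± 83.3). For the ERBB2 miRNA miR-4728-5p the signal was 101 ± 7.25 (309 ± 7.16 and 246 ± 17.4). These 4 each had every probe far above the negative control spots, and the replicate spots of miR-4652-3p spread most.

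The last 2 of the 8 were miR-4721 at 93.7 ± 6.82 (308 ± 34.3 and 205 ± 5.37) and miR-4769-3p at 74.2 ± 5.51 (219 ± 69.2 and 187 ± 50.8). All 8 had 20 of 20 spots well above background, outlier spots counted in. In the deposited normalized table they read from 8.59 for miR-4701-5p to 6.28 for miR-4769-3p on the log2 scale. Signals of different probes are given side by side and are not an order of abundance. Of the 8, 5 were 3p arms, 2 were 5p arms and 1 had no arm in its name.

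Arms were compared next, since either arm of a hairpin can be the stable one. Of the 105 5p arms, 36 were detected (34.3%), against 49.1% of all 5p arms of the array. Of the 105 3p arms, 28 were detected (26.7%), against 43.8% of all 3p arms. Names without an arm gave 23 of 70 (32.9%), against 40.3%. By the flag of the software the 5p arms were thus ahead of the 3p arms by 7.6 percentage points.

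That lead rested on weak signals and turned with the rule. Among the detected 5p arms 20 of 36 had a signal under 5 (55.6%), with a median of 4.31 over all 36. Among the detected 3p arms 8 of 28 were under 5 (28.6%), with a median of 10.5. Only 12 of the 36 detected 5p arms had every probe above background (33.3%), against 20 of the 28 3p arms (71.4%) and 17 of the 23 without an arm (73.9%). Over all detected miRNAs of the array 66.0% had every probe above background, with 66.8% for 5p and 63.4% for 3p arms. The difference of 5p minus 3p was 1.9 points under the rule on 1 probe, -1.9 points under the negative control rule, -3.8 points at a signal of 5 or more and -7.6 points with every probe above background. The order of the arms in the block is therefore not settled by this array.

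**Figure D2:**
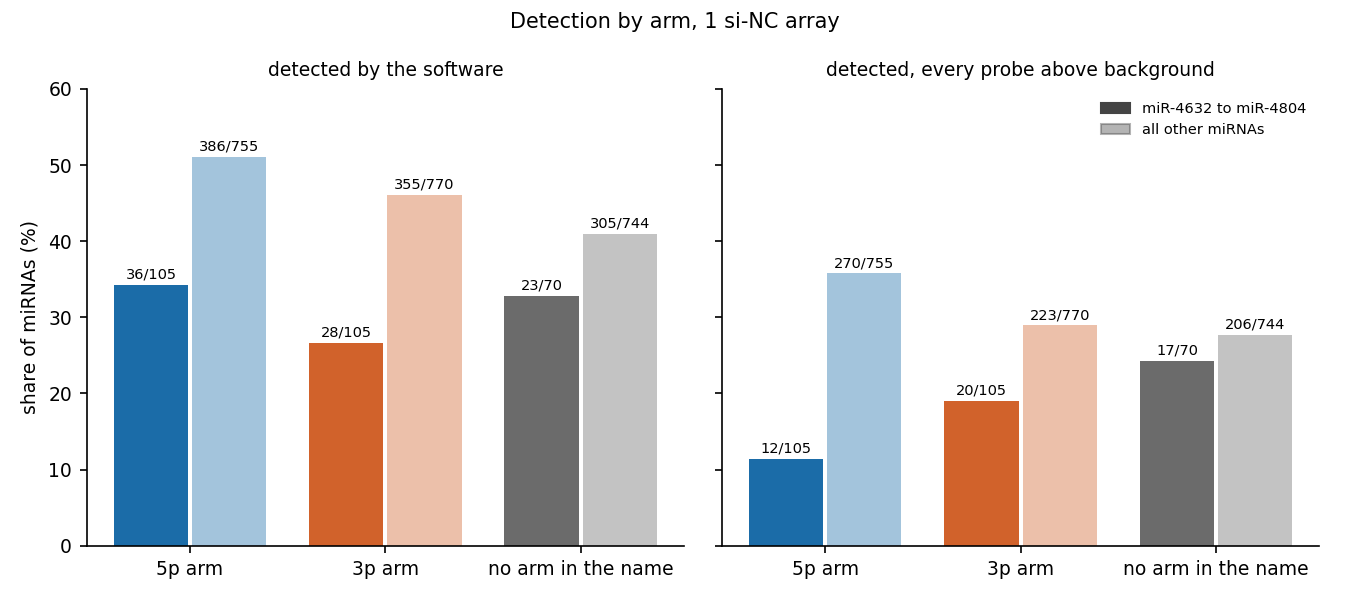
Share of miRNAs (percent, axis from 0) detected by arm, for the members (dark bars) and all other miRNAs (light bars), by the flag of the software on the left and with every probe above background on the right; the numbers give detected of measured. Among the members the 5p bar falls from 36 to 12 of 105 and the 3p bar from 28 to 20 of 105, while the other miRNAs keep more 5p than 3p arms in both panels (386 of 755 and 355 of 770, then 270 of 755 and 223 of 770).

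The weak 5p arms were rich in G, as were the detected names without an arm. The 20 detected 5p arms under 5 had a median of 3 spots well above background (0 to 12 of 20), and in 0 of them was every probe above background. Over the 18 with a sequence, the median GC content was 65.3% and the median G content 45.8%. Of the 16 5p arms at 5 or more, 14 had a sequence, with medians of 60.8% GC and 31.8% G, and of the 69 undetected ones 64 had one, with 45.5% GC and 23.8% G. Among the 20 3p arms at 5 or more, every probe was above background in all 20, and the 19 with a sequence had medians of 59.1% GC and 34.6% G. Detected names without an arm had a median G content of 52.2% under 5 (3 members) and 43.5% at 5 or more (19 with a sequence). The weak 3p arms were not rich in G. Under 5, the 5 with a sequence had a lower median G content than the undetected 3p arms. Within hairpins with both arms detected, the G-rich arm went either way. It was the dimmer arm in miR-4758, miR-4701 and miR-4723, for example. It was the brighter arm in miR-4728, miR-4687, miR-4716, miR-4763 and miR-4787. Both arms of miR-4758, picked after the values were seen, are printed as a case of the first kind only.
miR-4758-5p: gUGAGUGGgagccgguggggcug
miR-4758-3p: uGCCCCACcugcugaccacccuc
Only 3 of 20 spots stood well above background for miR-4758-5p, whose signal was 3.76 ± 0.728. All 20 did for miR-4758-3p, at 33.7 ± 2.56.

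Both arms were on the array for 105 hairpins of the block. Both were detected for 16 of them (15.2%), the 5p arm alone for 20 (19.0%), the 3p arm alone for 12 (11.4%) and neither for 57 (54.3%). Over all 810 such hairpins of the array, 28.6% had both arms detected and 36.2% neither. At least 1 arm was thus detected for 48 of the 105 hairpins (45.7%), against 63.8%. With every probe above background the order of the single arms turned, to 8 hairpins with the 5p arm alone and 16 with the 3p arm alone, and both arms remained for 4.

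The 5 hairpins whose dimmer arm was brightest carry the firmest evidence that both arms gave a signal, and their sequences are printed where RefSeq holds them and they are not given above.
miR-4701-3p: aUGGGUGAuggguguggugu
miR-4646-3p: aUUGUCCCucucccuucccag
miR-4716-5p: uCCAUGUUuccuucccccuucu
miR-4793-5p: aCAUCCUGcuccacagggcagagg
miR-4793-3p: uCUGCACUgugaguuggcuggcu
miR-4787-5p: gCGGGGGUggcggcggcauccc
miR-4787-3p: gAUGCGCCgcccacugccccgcgc
For miR-4701 the 5p arm had 374 ± 26.8 and the 3p arm 29.9 ± 2.28, and every spot of both was well above background. For miR-4716 the values lay the other way, at 14.1 ± 1.25 for 5p and 132 ± 9.41 for 3p. The signals of the pair from miR-4646 were close, at 19.5 ± 1.54 and 16.7 ± 1.47. Those of miR-4793 were 14.8 ± 1.26 and 6.97 ± 0.838, and those of miR-4787 were 11.7 ± 1.19 and 5.79 ± 0.794. In miR-4787 the 5p arm rested on 1 probe above background with 13 of 20 spots, and the 3p arm on 16 of 20. Across the 16 pairs the 5p arm had the higher signal in 7 and the 3p arm in 9. The difference exceeded 3 combined errors in 11 pairs and not in 5. Since the arms bind different probes, these differences are not ratios of arm abundance.

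**Figure D3:**
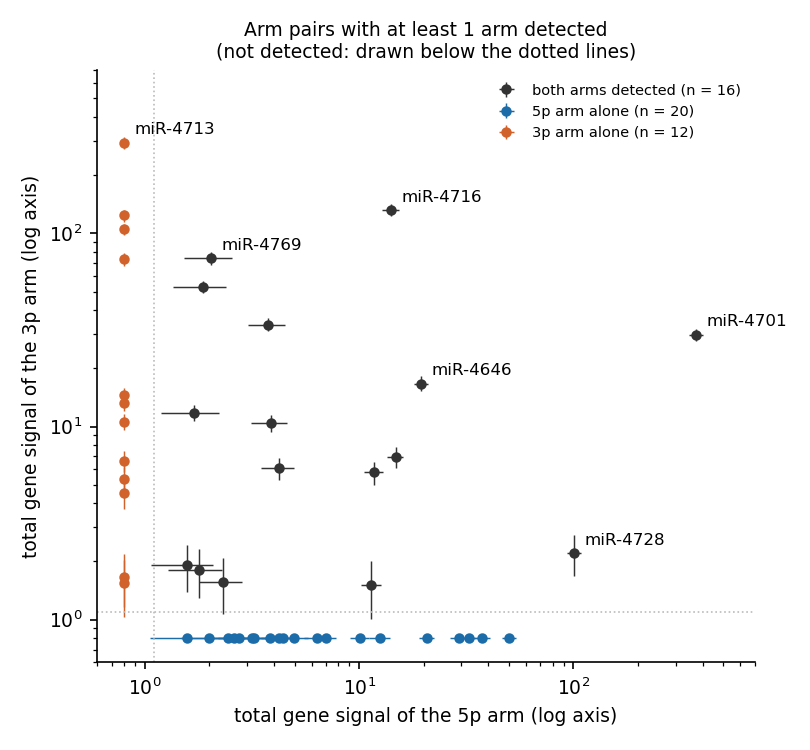
Total gene signal of the 5p arm (x, log axis) against that of the 3p arm (y, log axis) for the 48 hairpins of the block with at least 1 arm detected, with bars for the error of the scanner software; arms called undetected have no level and are drawn beyond the dotted lines. The 16 pairs with both arms detected scatter widely, from miR-4701 (374 and 29.9) to miR-4716 (14.1 and 132).

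Several hairpins with a bright arm had a partner at the edge of detection. The partner of miR-4728-5p, miR-4728-3p, had 2.20 ± 0.527 with 5 of 20 spots well above background. The 3p arm of miR-4687, a hairpin on the same strand as STIM1, a calcium sensor of the endoplasmic reticulum, had 53.1 ± 3.87 with 20 of 20 spots. Its 5p arm had 1.87 ± 0.514 with 2 of 20. In both hairpins 1 arm was measured by every spot and the other lay at the edge of detection.

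Probe support was then followed from spots to probes. The members had 578 probes, and each had 20 spots, of which 291 in all (5.20%) were outliers. All 20 spots were well above background for 40 of the 87 detected members, 10 to 19 for 18, 1 to 9 for 24 and 0 for 5. Every spot was thus well above background in 46.0% of detected members, against 56.7% of all detected miRNAs. Every probe was above background for 49 members (56.3%), some probes for 18, and no probe for 20 (23.0%, against 14.8% of all detected miRNAs). For all detected miRNAs the share with every probe above background was 66.0%, as given above. Of the 193 undetected members, 34 had at least 1 spot well above background and none had more than 3, and no other rule called any of them.

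At the low end, 20 detected members were called by the flag of the software and by no other rule except the floor of the deposited table. The 3 lowest signals were those of miR-4750-3p (1.51 ± 0.502), miR-4640-3p (1.54 ± 0.503) and miR-4664-3p (1.57 ± 0.504). They had 0, 1 and 0 of 20 spots well above background. The brighter probe of miR-4640-3p had spots from 5.78 to 12.2, median 8.40, all under the 99th percentile of the negative controls. Probe signals of this size were also reached by negative control spots. At the limit of 5 used above, miR-4632-5p lay just below (4.99 ± 0.763, 12 of 20 spots) and miR-4677-3p just above (5.37 ± 0.776, 18 of 20 spots). Of the 87, 48 were called by every rule used here.

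**Figure D4:**
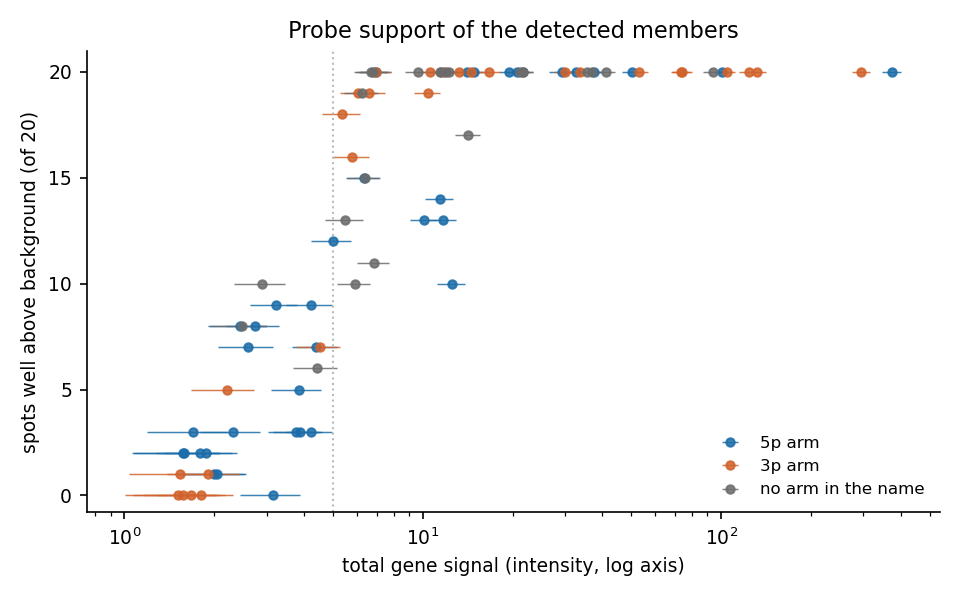
Spots well above background (y, of 20) against total gene signal (x, log axis) for the 87 detected members, coloured by arm, with bars for the error of the scanner software and a dotted line at a signal of 5. All 40 members with 20 of 20 such spots lie right of the line, and 20 of the 31 to its left are 5p arms.

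Where 2 or more probes of a member were above background, the log2 difference between them was mostly under 1. Over the 49 such members the median log2 difference between the brightest and dimmest probe was 0.25 (quartiles 0.11 and 0.49). Over the 800 such miRNAs of the array it was 0.35 (0.14 and 0.82). The difference was 1 or more in 5 members (10.2%), against 19.2% for all, and exceeded 3 standard errors in 25 (51.0%), against 65.8%. A difference of brightest and dimmest can grow with the number of probes. All of the 49 but miR-4652-3p had 2 such probes. The array also holds detected miRNAs with 3 probes (69) and with 4 (142), so members and array are not like for like here. Probes at background do not enter. This leaves out the 18 detected members with only some probes above background. Detected members were also dimmer than all detected miRNAs (median signals of 6.97 and 12.5), and signal was not matched here.

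The widest gap was in miR-4633-5p, at 2.65 ± 0.06 (SE from replicate spots), where one probe read 138 ± 11.1 and the other 22.0 ± 2.01. In miR-4647 the gap was 2.23 ± 0.07, between 64.3 ± 8.51 and 13.6 ± 0.955, and the lower value is under the 99th percentile of the negative controls. For miR-4725-5p it was 1.49 ± 0.17, between 152 ± 40.6 and 53.1 ± 10.8. In these 3 the spots of the brighter and the dimmer probe did not overlap. Smaller gaps were seen in miR-4746-3p at 1.31 ± 0.06 and in miR-4723-3p at 1.06 ± 0.22. A contrasting case was miR-4668-5p, an A-rich member whose total gene signal of 12.5 ± 1.36 came from 1 probe at 68.5 ± 12.7, while the other read 0.679 ± 1.83 with 0 of 10 spots well above background. It does not enter the list of gaps, which needs both probes above background.

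The number of probes went with detection inside the block. Of the 262 members with 2 probes 86 were detected (32.8%), and of the 18 with 3 probes 1 was (5.56%), namely miR-4652-3p. Over the whole array the shares were 44.8% with 2 probes and 39.9% with 3 (69 of 173). Among the members the median GC content was 53.3% with 2 probes and 42.9% with 3, and its part in the difference was not tested.

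Replicate spots spread more for the members than for the array. The median coefficient of variation (CV, SD over mean) of a probe above background was 11.7% over 117 probes of the members, with quartiles of 7.55% and 17.8%, against 8.73% over 1940 probes of the array. Signal was not held equal between them. Among probes with under 40% C, the median spot signal was 37.6 for members and 64.2 for other miRNAs. At a mean spot signal of 100 or more their median CVs were 5.67% and 4.57%. From 20 to under 100 they were 11.2% and 9.64%. The largest CVs fell on C-rich members. For miR-4646-3p, printed above, the probes read 56.5 ± 21.3 and 35.1 ± 16.6 (CVs of 37.7% and 47.2%), while for its 5p partner they read 57.0 ± 3.25 and 49.7 ± 4.78 (5.70% and 9.61%). The arms had mean spot signals of the same order and differed in the spread of their spots.

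Detection followed base composition closely in the block. Among members with a sequence, 4 of 49 were detected at a GC content under 40% (8.16%), 8 of 54 from 40% to under 50% (14.8%), 26 of 67 from 50% to under 60% (38.8%) and 40 of 80 at 60% and over (50%). For all other miRNAs the shares were 30.7%, 43.4%, 45.3% and 57.4%. Both series rose with GC content, and the members lay furthest below the others where GC content was low. Under 50% GC, 12 of 103 members were detected (11.7%), against 311 of 818 other miRNAs (38.0%). At 50% and over, 66 of 147 were (44.9%), against 603 of 1180 (51.1%). The median GC content of members and others was the same, at 52.2%. The part of base composition in the lower share of the block was not tested.

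G content split the members further. Of the 60 members with 40% G or more 40 were detected (66.7%), against 61.8% of other miRNAs (260 of 421). Of the 190 with less G 38 were (20%), against 41.5% (654 of 1577). By the flag, G-rich members were not below other G-rich miRNAs. At a signal of 5 or more they were, with 25 of 60 (41.7%) against 49.9%, and members with less G lay at 14.2% against 30.6%. The median G content was 40.5% in detected and 23.8% in undetected members, against 28.6% and 26.1% in other miRNAs. A run of GGGG was present in 28 members, of which 17 were detected (60.7%), against 66.0% of the 241 other miRNAs with such a run. At a signal of 5 or more 9 of the 28 remained (32.1%), against 50.6%. The G-rich detections were weak among 5p arms: of 27 5p arms with 40% G or more 18 were detected, but only 6 had a signal of 5 or more. Of 10 such 3p arms 8 were detected, and all 8 had a signal of 5 or more.

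**Figure D5:**
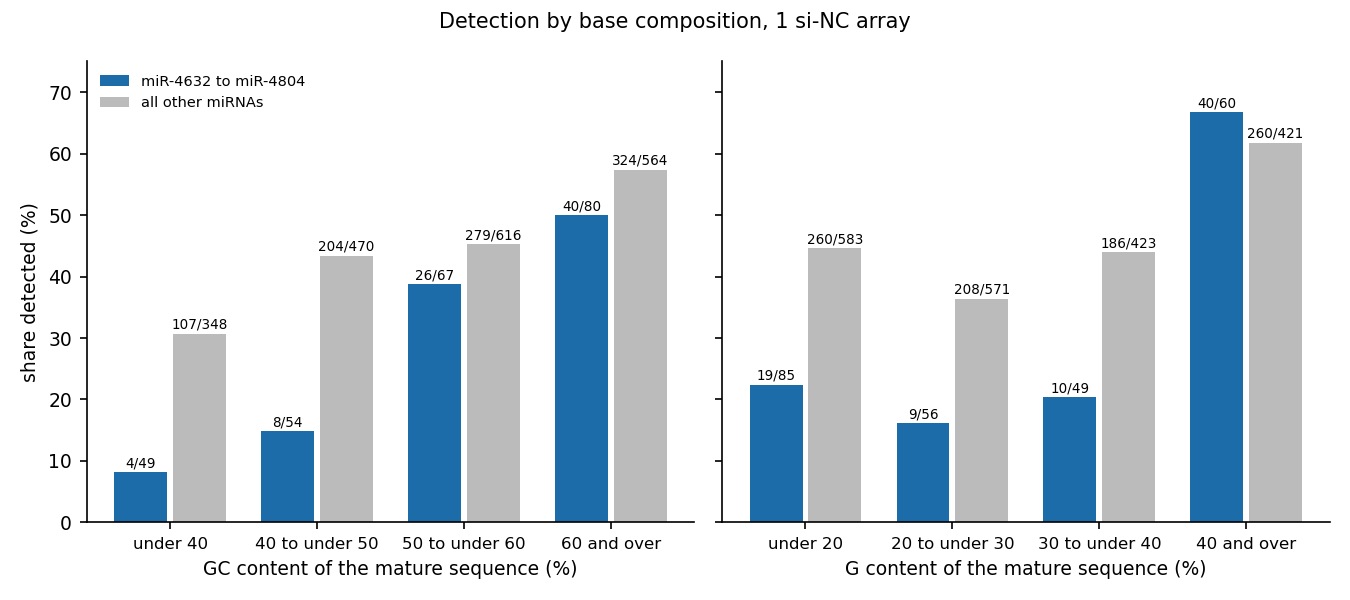
Share detected (percent, axis from 0) by GC content (left) and G content (right) of the mature RefSeq sequence, for the members (blue) and all other miRNAs (grey), with detected of measured above each bar. The members rise from 8.16% under 40% GC to 50% at 60% and over, and exceed the other miRNAs in 1 bin, at 40% G and over (66.7% against 61.8%).

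Seeds were rarely shared. The 250 members with a sequence had 243 different seeds, and 7 seeds were shared by 2 members each. Both members of the pair were detected for 1 of these seeds, CUGGGGA, in miR-4667-5p (6.33 ± 0.820, 15 of 20 spots) and miR-4700-5p (1.58 ± 0.506, 2 of 20 spots). Of the 8 members with the highest signals, none of the 7 with a sequence shared its seed with another member or with a detected miRNA numbered under 1000. Seeds of such detected miRNAs occurred in 4 members, and all 4 were undetected, as were 172 of the 250 members with a sequence (68.8%). With 4 members, nothing can be read from this share. The pairs with the brightest of these early miRNAs are shown, since they share a seed and little else.
miR-4667-5p: aCUGGGGAgcagaaggagaacc
miR-4700-5p: uCUGGGGAugaggacagugugu
miR-4735-3p: aAAGGUGCucaaauuagacau
miR-18a-5p: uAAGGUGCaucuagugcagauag
miR-4782-3p: uGAUUGUCuucauaucuagaac
miR-219a-5p: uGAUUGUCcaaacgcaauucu
The signal of miR-18a-5p, a member of the oncogenic cluster around miR-17, was 846 ± 60, and that of miR-18b-5p, with the same seed, was 349 ± 23.8. The probes of miR-4735-3p read -0.941 ± 2.48 and -2.52 ± 0.835. For miR-219a-5p the signal was 154 ± 10.9, and the probes of miR-4782-3p read -1.36 ± 2.21 and -2.13 ± 1.68. The probes of both members read at background. The other pairs were miR-4712-5p with miR-770-5p (40.8 ± 2.15) and miR-4676-3p with miR-452-5p (18.5 ± 1.51).

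Position in the genome was read from RefSeq gene spans. Of the 175 hairpins 71 had a detected arm (40.6%), against 51.8% of the 1738 hairpins of the array, and 174 matched a gene symbol of their own. Inside a protein-coding gene on the same strand 41 of 85 hairpins had a detected arm (48.2%), against 58.6% of all hairpins in that class. On the opposite strand 7 of 14 had one (50%), against 45.8%, and in 34 with the strand of the host not known 11 had one (32.4%), against 46.2%. Outside protein-coding genes 12 of 41 had one (29.3%), against 46.9%. The order of same strand above outside was thus that of the whole array. Base composition was not held equal between these classes, and its part in the difference was not tested.

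Some hairpins lie within 10 kb of a well-known miRNA and were looked up after the values were seen. Both arms of miR-4763 were detected, at 11.8 ± 1.07 for 3p (20 of 20 spots) and 1.70 ± 0.510 for 5p (3 of 20), beside the genes of let-7a-3 and let-7b. The signal of let-7a-5p, which several gene copies give, was 16584 ± 1173. The member miR-4736 was undetected beside miR-142, a miRNA of blood cells, whose 3p arm had 695 ± 50 and 5p arm 41.8 ± 3.04. Both arms of miR-4732 were undetected beside miR-144, also undetected, and miR-451a. The hairpin miR-4725 lies beside miR-365b, with 37.5 ± 3.10 for miR-4725-5p and 15.0 ± 1.28 for miR-365b-5p. A member was thus detected beside the bright let-7 genes and not beside the bright miR-142. With so few cases, nothing can be read from nearness to a bright miRNA.

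The study's lists of changed miRNAs name 2 members, and both are printed here for that reason.
miR-4636: aACUCGUGuucaaagccuuuag
miR-4730: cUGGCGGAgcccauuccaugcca
The list of miRNAs higher after circLONP2 overexpression names miR-4636, whose hairpin lies within SEMA5A, a gene of an axon guidance protein, on the same strand. Its signal in the control cells was 6.38 ± 0.823 with 15 of 20 spots well above background. One probe read 21.9 ± 2.90 (17.4 to 25.8) and the other 13.0 ± 1.85 (10.0 to 15.4), so that only the first was above background. The list of miRNAs lower after circLONP2 knockdown names miR-4730, at chr17:80419427-80419449 on the plus strand within ENDOV, an endonuclease gene. Its signal was 21.7 ± 1.71 with 20 of 20 spots, from probes at 70.3 ± 7.71 (61.9 to 83.1) and 48.4 ± 7.02 (39.7 to 59.5). The control level of miR-4730 was measured by both probes, and that of miR-4636 lay close to background. The study chose these names with arrays of this kind. For miR-4730 its methods describe a comparison of depleted DLD-1 cells with a negative control, which is what this array holds. That the 2 names were detected here is therefore no independent evidence.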

How the data were processed

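Per the labels, T4 RNA ligase joined Cyanine 3-pCp to the RNA, while the study's methods describe labelled cDNA, and the values do not settle which. Per the file headers, spot intensity came from Feature Extraction 11.0.1.1 on a design made for hg19. The deposited intensity is background-subtracted and not normalized between arrays. Detection, outlier and background flags and total gene signals were also deposited. The authors' table of log2 values was quantile normalized in GeneSpring GX 12.1, and was used only for its values and its floor of 2.32.

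Outlier spots were left out of means, SDs and probe rules. A probe was above background with at least 50% of its remaining spots well above background. Undetected miRNAs carry a placeholder of 0.100 and have no level. Mature sequences, positions and gene spans came from RefSeq tables of GRCh38.p14, and members were matched by name or symbol. Python 3.11.15 was used with pandas 2.3.3 and numpy 2.4.6, and R 4.3.3 with limma 3.58.1 for normexp (offset 50). The calculations of CV and of probe differences were run on simulated spots. All of these were set well above background without outliers, so the background and outlier rules were not tested.

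The members, the lists and the naming rule were chosen with earlier results of these data known. The rule names the 8 highest signals, the 5 pairs with the brightest dimmer arm, the 5 largest probe differences, the 3 lowest members called by the flag alone, members on the study's lists, and those with shared seeds, letter suffixes or neighbours within 10 kb. Other members were named after their values were seen. These include miR-4758, miR-4687, miR-4728-3p, miR-4668-5p, miR-4632-5p, miR-4677-3p and those beside miRNAs outside the block. They also include the miR-4723 pair, miR-4665-3p, miR-4737, miR-4670-3p and miR-4703-3p. Only names were taken from the study's lists. The alternatives were other detection rules, outlier spots kept, letter-suffixed members left out, normexp, no filter on dim probes and other filters on signal. Depth is signal over background, and the single array limits the precision.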

Additional observations from a re-analysis of the deposited data

How the results depend on the processing

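In all, 14 results were recomputed under 70 alternatives, of which 42 were counted as unchanged, 25 moved and 3 reversed. Unchanged does not mean equal, since counts within a ratio of 1.5 were placed there. Examples are the fall from 87 to 67 detected members under the rule on 1 probe. Hairpins with neither arm rose from 57 to 77 with every probe above background and were also counted so. Among the 42 was the difference of 5p minus 3p arms under the rule on 1 probe, which fell from 7.6 to 1.9 percentage points. Several others could not move. The floor of the deposited table repeats the flag, all named arms of the block are in pairs, and no letter-suffixed member was detected. The 87 detected members fell to 56 under the negative control rule (also 56 with outlier spots kept), 56 at a signal of 5 or more, and 49 with every probe above background (50 with outlier spots kept). The 36 detected 5p arms became 23 under the rule on 1 probe, 17 under the negative control rule, 16 at a signal of 5 or more and 12 with every probe above background. The difference of 5p minus 3p arms went from 7.6 percentage points to -1.9, -3.8 and -7.6 under the last 3 of these rules. In the same order of 4 rules, the 16 hairpins with both arms detected became 6, 5, 5 and 4. The 20 with the 5p arm alone became 12, 11 and 8 under the last 3. These rules can mostly remove members, and no undetected member was called by any of them.

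The median log2 signal of detected members was 2.80, against 3.83 at a signal of 5 or more and -3.32 with undetected members at the placeholder. The median log2 difference between probes was 0.25, against 0.11 with normexp, whose offset shrinks differences, and 0.35 over 85 members when dim probes were kept. The median CV was 11.7%, against 4.54% with normexp and 31.7% when dim probes were kept. The difference in share detected between 60% GC and over and under 40% was 41.8 percentage points, against 23.9, 23.9 and 20.9 under the same last 3 rules. No paired analysis was possible because there was 1 sample. Signal over background limits most members, with 64 of the 87 under 20.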

Other observations

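The spread of replicate spots went with the C content of the mature sequence, a pattern noticed after the values were seen and described here without a test. Among probes of members above background, the median CV was 23.4% over 25 probes of 12 members with 40% C or more, and 10.2% over 83 probes of 50 members with less. A CV of 20% or more was found in 15 of the 25 probes (60%) and in 9 of the 83 (10.8%). The C-rich members with the widest spots were miR-4646-3p (CVs of 47.2% and 37.7%), miR-4716-5p (40.5% and 31.0%), miR-4723-3p (33.3% and 24.0%), miR-4652-3p (32.0%, 27.0% and 23.2%) and miR-4758-3p (31.2% and 26.3%). The member miR-4665-3p, with 53.8% C, had CVs of 6.36% and 6.14%, so the pattern has exceptions. Bright probes showed it too: at a mean spot signal of 100 or more the median was 23.3% over 8 C-rich probes of 4 members and 5.67% over 16 others. Members with under 20% G gave nearly the same medians, at 23.2% over 25 probes and 23.3% over 8 bright ones. High C and low G cannot be told apart in the block.

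The miRNAs outside the block, which did not prompt the question, gave a median CV of 17.5% over 235 probes with 40% C or more and 7.68% over 1358 with less. At a mean spot signal of 100 or more these medians were 19.6% over 63 probes and 4.57% over 555. With under 20% G the medians outside the block were 12.2% over 466 probes and 5.64% over 184 probes at 100 or more. Probes of one miRNA share its sequence and are not independent.

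The position of a spot on the array moved with this spread. In the first 64 of 384 rows, spots of C-rich members lay at a mean of -0.28 ± 0.34 (SD, 48 spots) on the log2 scale around the mean of their probe, and 38 of the 48 were below it. In the last 64 rows they lay at 0.18 ± 0.23 (42 spots), and 31 were above it. Members with under 30% C lay at -0.09 ± 0.22 (118 spots) and 0.07 ± 0.15 (111 spots). For miRNAs outside the block the values were -0.22 ± 0.30 (327 spots) and 0.13 ± 0.21 (348 spots) with 40% C or more, and -0.06 ± 0.16 (1574 spots) and 0.05 ± 0.13 (1645 spots) with under 30%. The same drift was thus seen in both classes and was larger in the C-rich one. Why it was larger was not tested.

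Chance sharing of sequence with bright miRNAs was also described. The longest run that a member shared with any of 54 miRNAs of signal 1000 or more had a median of 7 bases in detected and 6 in undetected members. A run of 10 or more bases was found in 1 detected member, miR-4737 (5.50 ± 0.784) with miR-106b-5p (2383), and in 2 undetected ones, miR-4670-3p and miR-4703-3p.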
